A study of Homo sapiens with 6 samples.

Results

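The epidermal differentiation complex is a cluster of genes on the long arm of chromosome 1 whose products build the outer layers of skin and other stratified epithelia. Members were the protein-coding genes of GENCODE in a fixed interval of chromosome 1 that holds the cluster and whose symbols name the S100A, SPRR, LCE, filaggrin-type, involucrin, loricrin, PGLYRP and related families. They run from S100A10, whose body begins at position 151982915 of hg38, to S100A1, whose body ends at 153632039. This rule gave 60 of 19111 autosomal protein-coding genes, namely 16 S100 genes, 7 S100 fused-type genes, 34 cornified envelope precursors and 3 others. It uses name and position only and no measured value.

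In epidermis, keratinocytes that leave the basal layer stop dividing and switch on these genes in sequence. Transglutaminases then cross-link involucrin, loricrin, small proline-rich (SPRR) and late cornified envelope (LCE) proteins under the plasma membrane into an insoluble shell, the cornified envelope. Filaggrin, a fused-type protein, bundles keratin filaments, and S100 proteins are small calcium-binding proteins, several of which act in inflammation, antimicrobial defence and cell movement far beyond skin.

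The assay was ATAC-seq, which marks accessible chromatin by where the Tn5 transposase can cut, and the cells were MCF-10A, a line of non-tumorigenic breast epithelium. The comparison concerned PIK3CA, the gene of the catalytic PI3K subunit p110 alpha. Parental cells (WT) were set beside previously made knock-in lines with PIK3CA E545K or H1047R, each with 2 samples, 6 in all. Peaks had been called jointly from the 2 samples of each genotype. Each genotype therefore has 1 list, sequencing depth is unknown, and no value below has a replicate check or a test.

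In routine culture, which contained 5% horse serum, EGF (20 ng/ml) was given to the parental cells alone. For the final 24 h each line had assay medium, in which EGF was at 0.2 ng/ml and stripped serum at 1%. Cholera toxin at 100 ng/ml, hydrocortisone at 0.5 µg/ml and insulin at 10 µg/ml were present throughout. Genotype and maintenance medium therefore cannot be told apart, and the labels do not say whether a knock-in line is 1 clone. PIK3CA itself had a promoter peak in each list, which does not check the edited bases. By promoter peaks, 7 of 8 epithelial and basal markers and 4 of 5 luminal markers were open in every list. TP63 and PGR were the exceptions, and KRT14 had small areas of 377.4 (WT), 320.3 (E545K) and 231.1 (H1047R). Over all genes, 67.4%, 67.7% and 68.1% had a promoter peak in WT, E545K and H1047R. KRT1, KRT2, KRTDAP and DSG1, which mark suprabasal keratinocytes, had no promoter peak in any list, and KRT10 had one in E545K alone, with an area of 233.3. Of the 5 immune, 3 endothelial and 4 fibroblast markers, 1 in each class was open in all lists (CD14, KDR and COL1A1). In each class 1 more was open in some lists only (SPI1, CDH5 and PDGFRA).

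A peak's area is the deposited signal value, which sums the height of the peak caller's curve from one end of the peak to the other. A wide low peak and a narrow high one can have the same area, and no list held a peak with an area under 200. How areas scale between lists is not stated. Ranks within each list are given further below, but for most members only areas are printed. An order of areas between lists need not be an order of ranks. At the SPRR2D promoter the area was 1313 in WT and 1192 in E545K, yet the rank was 1.4 percentile points higher in E545K. At the S100A13 promoter areas of 4991 and 4142 went with ranks of 94.9 and 93.7. More accessible cells and more access per cell cannot be told apart in such bulk samples. A promoter was the 1 kb on either side of a gene's canonical start, and a gene's window was its body plus 5 kb on either side.

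Stretches of 201 bases centred on the summits of 4 peaks are printed because the results turn on them. The S100A7 peak was called in H1047R alone (chr1:153461488-153461688), the IVL peak was the strongest near an envelope gene (chr1:152906271-152906471), the SPRR3 peak had the largest rank difference between E545K and WT (chr1:153000392-153000592), and the S100A10 peak had its highest area in WT (chr1:151976903-151977103). All are on the plus strand of hg38. Capitals mark matches to TGANTCA, the letters used here for the AP-1 factors of the JUN and FOS families. These factors are known to act on many genes of the complex. N allows any base, so not every match need be a site that they bind, and binding was not measured.

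S100A7 peak of H1047R: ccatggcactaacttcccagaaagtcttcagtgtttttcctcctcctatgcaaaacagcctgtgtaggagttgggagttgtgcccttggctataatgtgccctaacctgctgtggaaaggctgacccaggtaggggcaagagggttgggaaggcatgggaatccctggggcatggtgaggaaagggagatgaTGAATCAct
IVL upstream peak of E545K: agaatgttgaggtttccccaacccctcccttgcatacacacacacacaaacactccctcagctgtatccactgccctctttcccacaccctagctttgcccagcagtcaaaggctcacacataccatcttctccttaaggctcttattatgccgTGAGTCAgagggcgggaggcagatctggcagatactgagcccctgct
SPRR3 upstream peak of E545K: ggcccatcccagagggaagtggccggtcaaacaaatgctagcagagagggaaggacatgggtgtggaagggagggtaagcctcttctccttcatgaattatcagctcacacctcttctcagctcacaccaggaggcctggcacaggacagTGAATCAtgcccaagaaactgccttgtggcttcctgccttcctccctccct
S100A10 downstream peak of WT: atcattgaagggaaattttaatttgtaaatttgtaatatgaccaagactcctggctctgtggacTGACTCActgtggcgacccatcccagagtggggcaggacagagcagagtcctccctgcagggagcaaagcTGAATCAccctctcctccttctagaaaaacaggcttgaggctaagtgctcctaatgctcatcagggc

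Each of the S100A7, IVL and SPRR3 stretches held 1 such match and the S100A10 stretch held 2. Such matches were common, lying within 100 bp of the summit in 34.4%, 32.5% and 36.9% of all WT, E545K and H1047R peaks. Among the members' peaks the shares were 33%, 36.5% and 39.8%. The 4 printed stretches were picked by hand, so they do not show that the letters are particular to these peaks. None of the 4 held the p53 and p63 half-site GNCATGNC or the Grainyhead-like (GRHL) letters AACNGGTT.

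Promoter peaks divided the complex by role. In WT, 30 of the 60 members had one, in E545K 29 and in H1047R 33, whereas over all 19111 genes the shares were 67.4%, 67.7% and 68.1%. A promoter peak was present in all lists for 28 members, in none for 27 and in some for 5. The S100 genes made up 14 of the 28 open throughout, and all 16 were open in H1047R. Among the fused-type genes 2, 1 and 2 of 7 had a promoter peak in WT, E545K and H1047R, and among the envelope precursors 12, 12 and 13 of 34.

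Within the envelope families, LCE1 had a promoter peak in each list at 4 of 6 genes, LCE2 at 0 of 4 and LCE3 at 2 of 5. SPRR1A and SPRR1B were open in each list, but only SPRR2D among the 6 SPRR2 genes was. The interval held 7 other protein-coding genes, left out by symbol alone, whatever their function. Of these, C1orf68, KPRP, CHTOP, SNAPIN, ILF2 and NPR1 had a promoter peak in every list and LELP1 in none. Over all genes the shares were 67.4%, 67.7% and 68.1% in WT, E545K and H1047R.

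**Figure D1:**
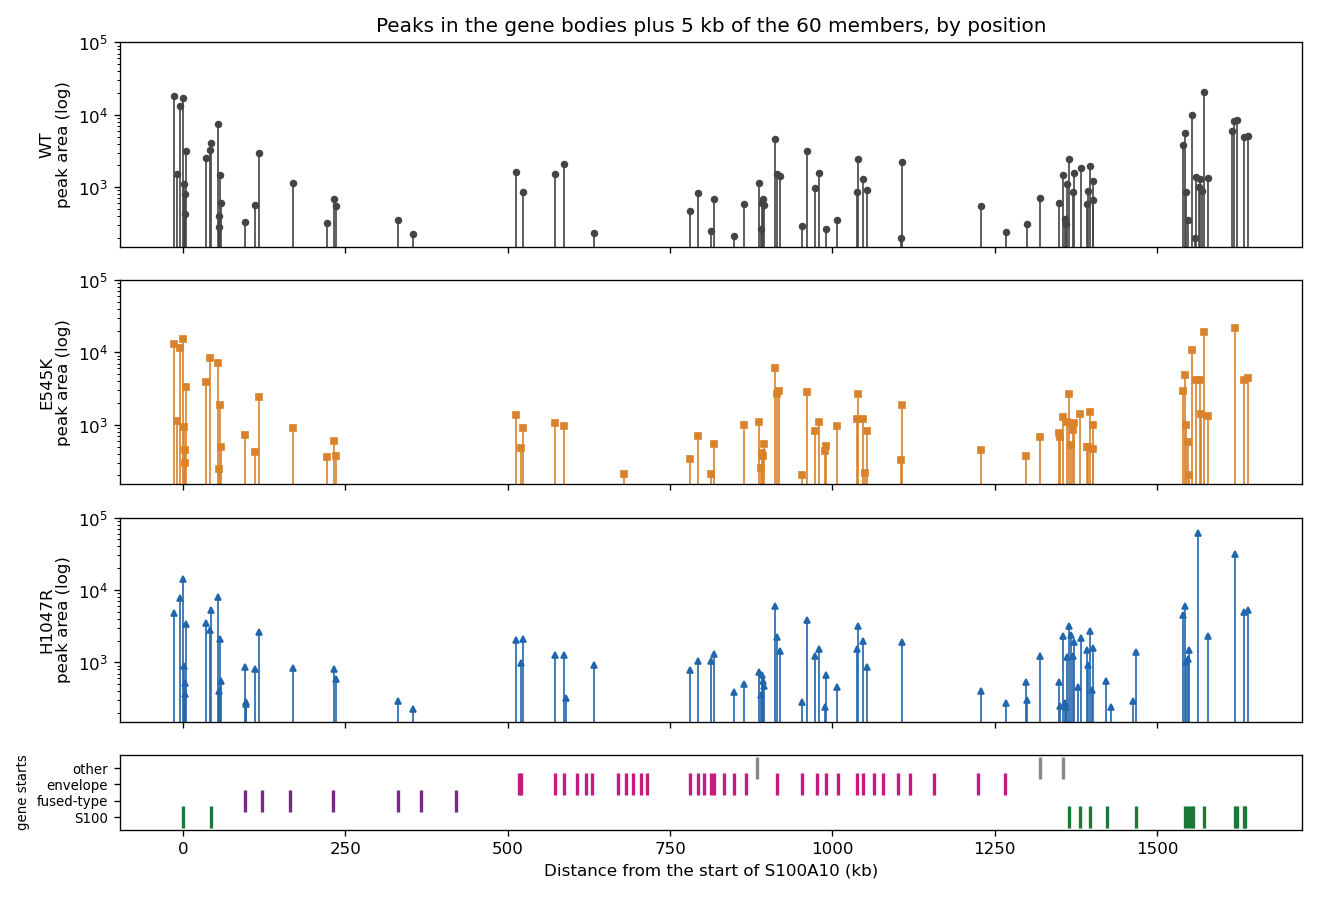
Peaks in the members' windows in WT, E545K and H1047R, each a stem as high as its area (log axis) by distance from the start of S100A10 in kb, with the members' starts below by role. The strongest peaks lie at the S100 genes at both ends, up to 20426 in WT, 21680 in E545K and 61705 in H1047R.

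The windows of the members were open over more of their length than those of genes at large. Peaks covered 12.5%, 14.2% and 14.4% of the members' 774634 bp in WT, E545K and H1047R, whereas they covered 3.57%, 3.75% and 3.79% of the windows of all genes. Most of this lay at the S100 genes, whose median window was covered to 39.7%, 46% and 47.8%. The median envelope precursor was covered to 2.46%, 2.75% and 2.73%, and the median fused-type gene to 2.57%, 2.74% and 3.21%. At least 1 peak lay in the window of 44, 40 and 46 of the 60 members, below the 87.6%, 86.3% and 88% of all genes. In both comparisons with all genes, windows were not matched for length, and the part of length was not tested.

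No list had a peak in the windows of 13 members, 12 of them envelope precursors and the other CRNN, the gene of the fused-type protein cornulin. The longest peak-free stretches that held the start of a member were 50818 bp around SPRR2G, 44798 bp across LCE2C, LCE2B, LCE2A and LCE4A, and 43664 bp across LCE3C, LCE3B and LCE3A. The longest of all, 72660 bp, held no member's start.

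The 8 strongest peaks of the complex lay nearest S100 genes in WT and E545K, and in H1047R 1 of the 8 lay upstream of IVL. S100A2, whose product is abundant in basal epithelial cells, had the largest promoter area in WT, 20426, with 18912 in E545K. S100A10, which forms a complex with annexin A2, followed in WT with a promoter area of 17017, against 15140 in E545K and 14173 in H1047R. These promoters ranked at or above the 99.8th percentile of their lists. S100A4, linked to cell motility, and S100A3 shared 1 promoter peak, with an area of 9878 in WT and 10782 in E545K. S100A14 had 8455 in WT and S100A16 8274. In E545K and H1047R both genes lay under 1 peak, with an area of 21680 and 31816. S100A6 had 5593, 4926 and 5949, and S100A13 and S100A1 shared a promoter peak of 4991, 4142 and 4994.

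In H1047R a single peak of 24971 bp with an area of 61705 ran across S100A4, S100A3 and S100A2 (chr1:153544242-153569212), the strongest of the complex in that list. The same stretch held 7 peaks in WT, with a summed area of 35077, and 5 in E545K, with 39315. Summed in this way, the H1047R area was 1.76 times that of WT and 1.57 times that of E545K. Summits differed less, with highest -log10 p values of 11.48 (WT), 10.65 (E545K) and 11.16 (H1047R). Coverage of the S100A3 window was 78.3%, 86.6% and 94.9%. At S100A16 and S100A14, 3 WT peaks summed to 22643, close to the single E545K peak and below the H1047R peak.

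**Figure D2:**
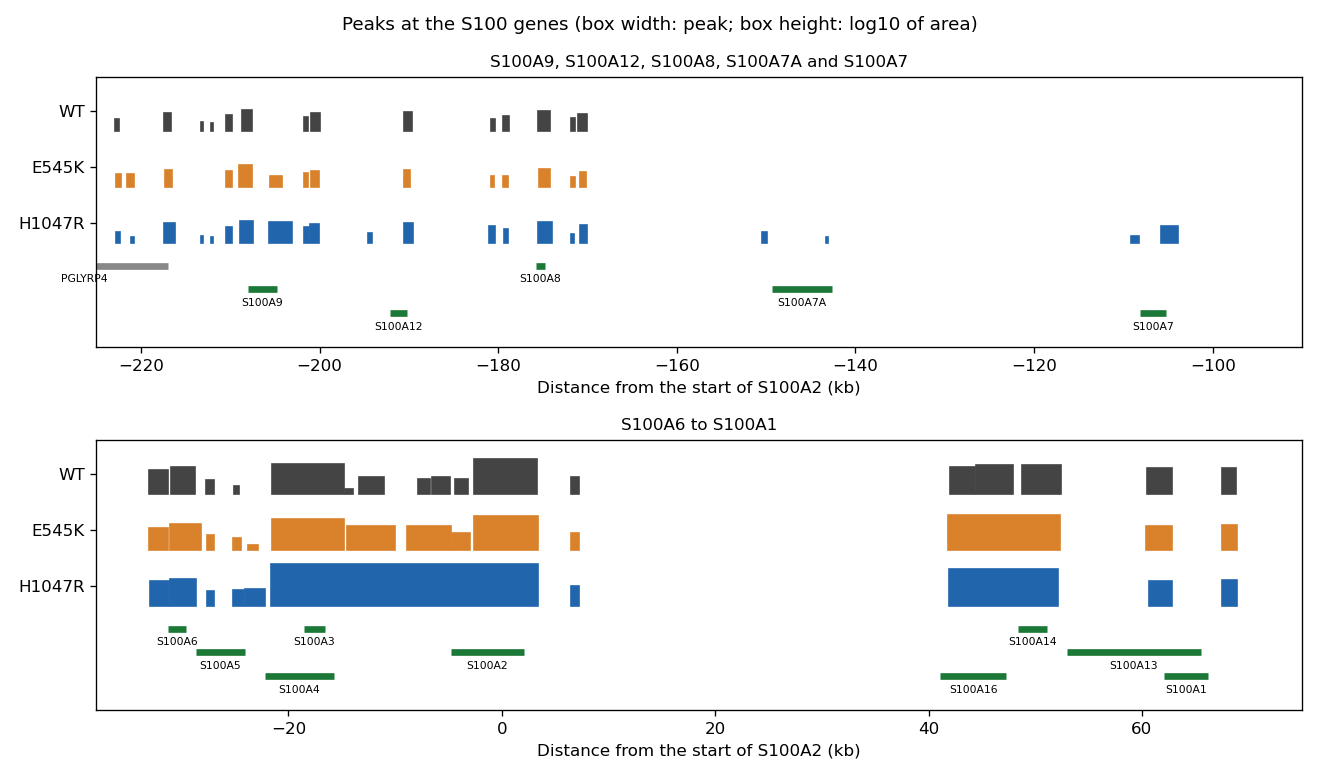
Peaks of the 3 lists in the members' windows around the S100 genes, each a box as wide as the peak and as high as the log10 of its area, by distance from the start of S100A2 in kb, with gene bodies below. A single H1047R peak spans S100A4, S100A3 and S100A2, where WT and E545K have 7 and 5 peaks, and S100A7 and S100A7A have peaks in H1047R alone.

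S100A10 showed another order. Its window was covered to 80.6% in WT and 82.3% in E545K, but to 55.0% in H1047R. The peak beyond its 3′ end printed above, 14421 bp from the start, had an area of 18158 in WT and 13111 in E545K, and its place held 2 H1047R peaks summing to 7061. An intronic peak had 13057, 11483 and 7730. Summits differed less. Highest -log10 p values beyond the 3′ end were 8.51 (WT), 7.51 (E545K) and 7.86 (H1047R), and at the intronic peak 9.29, 8.46 and 8.31. A further intronic peak of 1528 in WT and 1142 in E545K was missing from H1047R. S100A11, a neighbouring gene with roles in keratinocyte growth control, had promoter areas of 4093 (WT), 8290 (E545K) and 5204 (H1047R). The WT and H1047R values come from the larger of 2 peaks in that stretch, and summed areas were 7371, 8290 and 7976.

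S100A7 and S100A7A encode psoriasin and koebnerisin, antimicrobial proteins that are high in inflamed skin. Both had peaks in H1047R alone. The S100A7 promoter peak (chr1:153460029-153461922) had an area of 1384 and a summit -log10 p of 4.54, at the 74.3rd percentile of its list. Its summit, at 153461588, was not at the gene's start, 153460651, but upstream, near the edge of the promoter window. A peak beyond the 3′ end of the gene had 294.9. The S100A7A promoter peak had an area of 547.1, with 237.7 for a peak in an exon. Peaks covered 21.8% of the S100A7 window and 4.8% of that of S100A7A. WT and E545K had no peak in either window, so any signal there was below the calling limit of those lists.

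The calprotectin genes S100A8 and S100A9, which encode an inflammatory heterodimer, and S100A12 were open throughout. The S100A9 promoter had areas of 2453 (WT), 2687 (E545K) and 3185 (H1047R). A peak 3578 bp downstream of its start was missing from WT, small in E545K with 522.8, and larger in H1047R with 2413. S100A8 had 1940, 1479 and 2738, lowest in E545K and highest in H1047R, and S100A12 had the same order with 1815, 1402 and 2191. Near S100A8, a peak 5947 bp downstream of the start had 580.1, 489.5 and 1466, whereas one 3148 bp upstream had 665.5, 462.9 and 413.5. S100A5, known from olfactory sensory neurons, had a peak at its start whose area was 346.5 in WT, 580.6 in E545K and 1127 in H1047R. A second peak further upstream was missing from WT and had 204.0 in E545K and 1464 in H1047R, where alone it reached into the promoter.

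**Figure D3:**
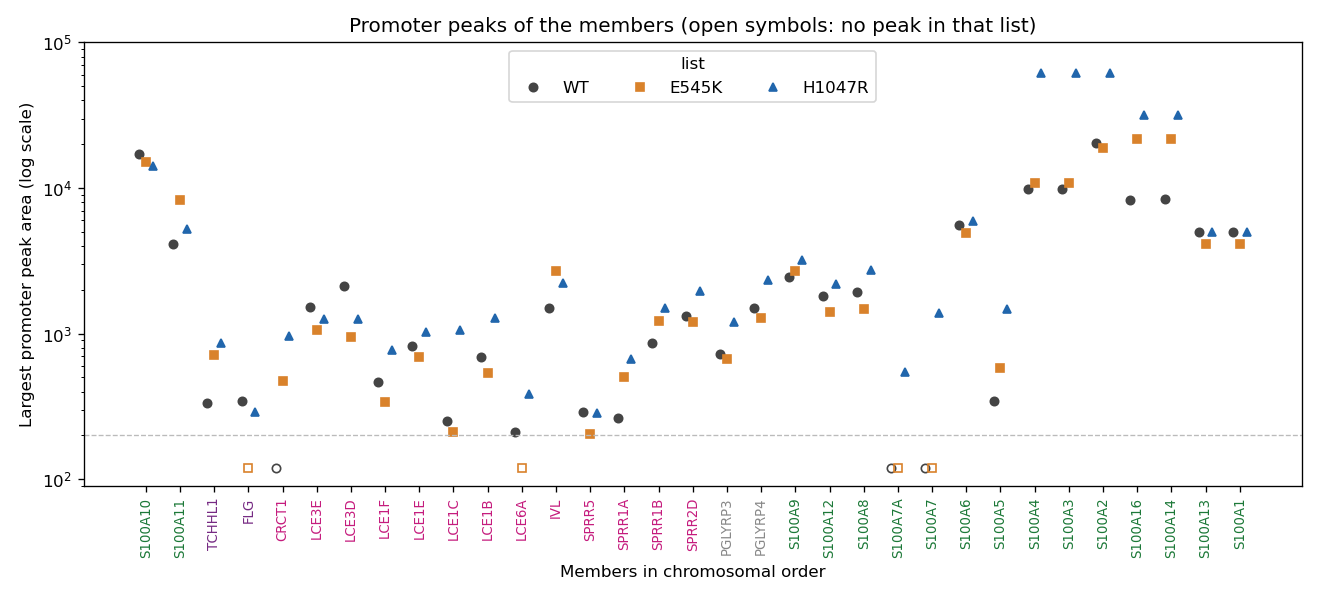
Area of the strongest promoter peak of each member in WT, E545K and H1047R, on a log axis, for members with a promoter peak in at least 1 list. Open symbols under the dashed line at an area of 200, the smallest in each list, mark the lists in which 5 members had no promoter peak.

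Among the fused-type genes, filaggrin (FLG) had a small promoter peak in WT, with an area of 346.3, and in H1047R, with 289.6, and none in E545K. TCHHL1, a relative of the hair follicle protein trichohyalin, had promoter areas of 331.5 (WT), 714.7 (E545K) and 857.9 (H1047R), and 2 further upstream peaks in H1047R alone. Trichohyalin (TCHH) itself had no promoter peak, but a peak in an exon had 2954, 2400 and 2640. RPTN, HRNR and FLG2 lacked promoter peaks in each list, with 1 to 3 window peaks in WT.

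IVL, the gene of involucrin, an early envelope scaffold, had the strongest single peak near an envelope precursor in each list, the upstream peak printed above. Its promoter had areas of 1504 (WT), 2670 (E545K) and 2227 (H1047R), lowest in WT. That upstream peak, 2693 bp before the start, had 4668, 6020 and 5936. A downstream peak had 1448, 2962 and 1448. It was 2810 bp wide in E545K, against 572 bp in WT and 826 bp in H1047R, and its summit -log10 p was not highest there, with 6.49, 6.24 and 5.88. Coverage of the IVL window was 21.0% in WT, 50.7% in E545K and 29.1% in H1047R. LORICRIN, the gene of the main late envelope protein, had no promoter peak in any list. A weak peak in its exon had 243.5 in WT and 273.3 in H1047R and was missing from E545K.

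SPRR proteins bridge other envelope proteins. SPRR1B had promoter areas of 856.5 (WT), 1214 (E545K) and 1504 (H1047R), and SPRR1A had 261.7, 501.3 and 667.3, so WT was lowest for both. SPRR2D had 1313, 1192 and 1970, and SPRR5 had 288.6, 204.5 and 286.8, among the lowest promoter areas of the complex. SPRR4 had no promoter peak and 2 window peaks in each list, and SPRR2E had none at its promoter but an intronic peak of 2223, 1875 and 1925. SPRR2A, SPRR2B, SPRR2F and SPRR2G had no peak in their windows. SPRR3 had no promoter peak, but the upstream peak printed above had 350.7 in WT, 947.5 in E545K and 458.1 in H1047R.

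LCE genes encode late envelope proteins. LCE3D and LCE3E were strongest in WT, with a promoter area of 2110, 952.1 and 1260 for LCE3D and of 1533, 1058 and 1264 for LCE3E. The LCE1 genes were strongest in H1047R: LCE1C had 251.2, 211.2 and 1058, LCE1B 692.8, 538.4 and 1283, LCE1F 467.5, 339.1 and 773.7, and LCE1E 823.8, 695.8 and 1031. LCE1A, LCE1D, LCE2A, LCE2B, LCE2D, LCE3B, LCE3C and LCE4A had no window peak in any list. LCE2C had a single weak one in E545K, 211.4, and LCE3A one in WT, 231.9, and H1047R, 924.5. LCE5A and LCE7A had no promoter peak but had window peaks in each list, as had PRR9 and SMCP. LCE6A had a promoter area of 210.2 in WT and 387.0 in H1047R, with none in E545K. CRCT1, a cysteine-rich neighbour, had none in WT, 472.7 in E545K and 968.9 in H1047R. PGLYRP3 and PGLYRP4, whose products bind bacterial peptidoglycan, had a promoter area of 719.3, 667.8 and 1208, and of 1490, 1276 and 2338.

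Presence in 1 list and not in another involved few promoters. In E545K and not WT there was 1 member, CRCT1, where the share over all genes was 1.72%, and in WT and not E545K there were 2, FLG and LCE6A (1.42%). In H1047R and not WT there were 3, CRCT1, S100A7 and S100A7A (1.78%), and in WT and not H1047R none (1.03%). In E545K and not H1047R there were none (1.35%), and in H1047R and not E545K 4, FLG, LCE6A, S100A7 and S100A7A (1.81%). With counts of 0 to 4 among 60, these shares differ from the background by a few genes each. They also depend on weak peaks: with areas of at least 400, E545K and not WT gave 4 members, H1047R and not WT 7, and FLG and LCE6A had no promoter peak in any list. No share over all genes was computed at this cut. SPRR1A, TCHHL1 and S100A5, with WT promoter areas of 261.7, 331.5 and 346.5, fell under it in WT alone.

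Counted once each, the members' windows held 91 peaks in WT, 85 in E545K and 93 in H1047R. Their median area was 977.7, 952.1 and 1058, above the 651.1, 623.8 and 638.9 of the whole lists. A peak had a partner where a peak of the other list overlapped it by at least 1 bp. Without a partner in WT were 8 E545K peaks, 9.41% (95% Wilson interval 4.85 to 17.5, for counting error only), beside 12.6% of all E545K peaks. Without one in E545K were 8 WT peaks, 8.79% (4.52 to 16.4), beside 20.3%. H1047R had 14 without a WT partner, 15.1% (9.18 to 23.7), beside 17.9%, and WT had 3 without an H1047R partner, 3.3% (1.13 to 9.25), beside 11%. Between the knock-ins, 5 E545K peaks had no H1047R partner, 5.88% (2.54 to 13), beside 9.14%, and 16 H1047R peaks had no E545K partner, 17.2% (10.9 to 26.1), beside 23.6%. With each list cut to its 89416 strongest peaks, these last counts were 8 and 9, and WT had 4 peaks without an E545K partner and 5 without an H1047R partner. In each ordered pair of full lists the members' share was below that of the whole list, and the members' peaks were also stronger than the list as a whole.

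Merged across lists, the peaks formed 96 regions, of 120615 in all. Of these, 69 had a peak in each list, 8 in H1047R alone, 8 in WT and H1047R, 6 in both knock-ins, 3 in WT and E545K, 2 in E545K alone and none in WT alone.

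Strength was compared by percentile rank of area within a list over 69662 regions that hold 1 peak of each list, 63 of them in the members' windows. Ranked higher in E545K than in WT were 31 of the 63, 49.2%, where the background was 47.7%. Ranked higher in H1047R than in WT were 39, 61.9% (background 48%), and higher in H1047R than in E545K 38, 60.3% (background 50.3%). The median difference in rank was -0.01 percentile points for E545K against WT, 3.57 for H1047R against WT and 1.24 for H1047R against E545K. With areas summed over all regions that have a peak in each list, the H1047R and WT median was 1.97. For regions within 5 Mb outside the windows these medians were -1.06, -0.50 and 0.08. By role, the H1047R and WT median was 2.61 for 25 regions nearest S100 genes, 5.06 for 24 nearest envelope precursors and 1.90 for 6 nearest fused-type genes, but -2.83 for 8 nearest SMCP, PGLYRP3 and PGLYRP4.

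The largest rank differences above 0 for E545K minus WT were 47.6 points at the SPRR3 upstream peak, 39.4 at the TCHHL1 promoter and 31.2 at the SPRR1A promoter. The largest below 0 were -19.3 points at the LCE3D promoter, -18.0 in a peak beyond SMCP, a sperm mitochondrial protein gene, and -16.9 in a peak downstream of S100A8. For H1047R minus WT the largest above 0 were 52.5 points at the LCE1C promoter, 46.8 at the S100A5 promoter and 36.8 at the TCHHL1 promoter. The largest below 0 were -23.5 points upstream of S100A8, -21.2 in an SMCP intron and -16.6 at the LCE3D promoter.

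**Figure D4:**
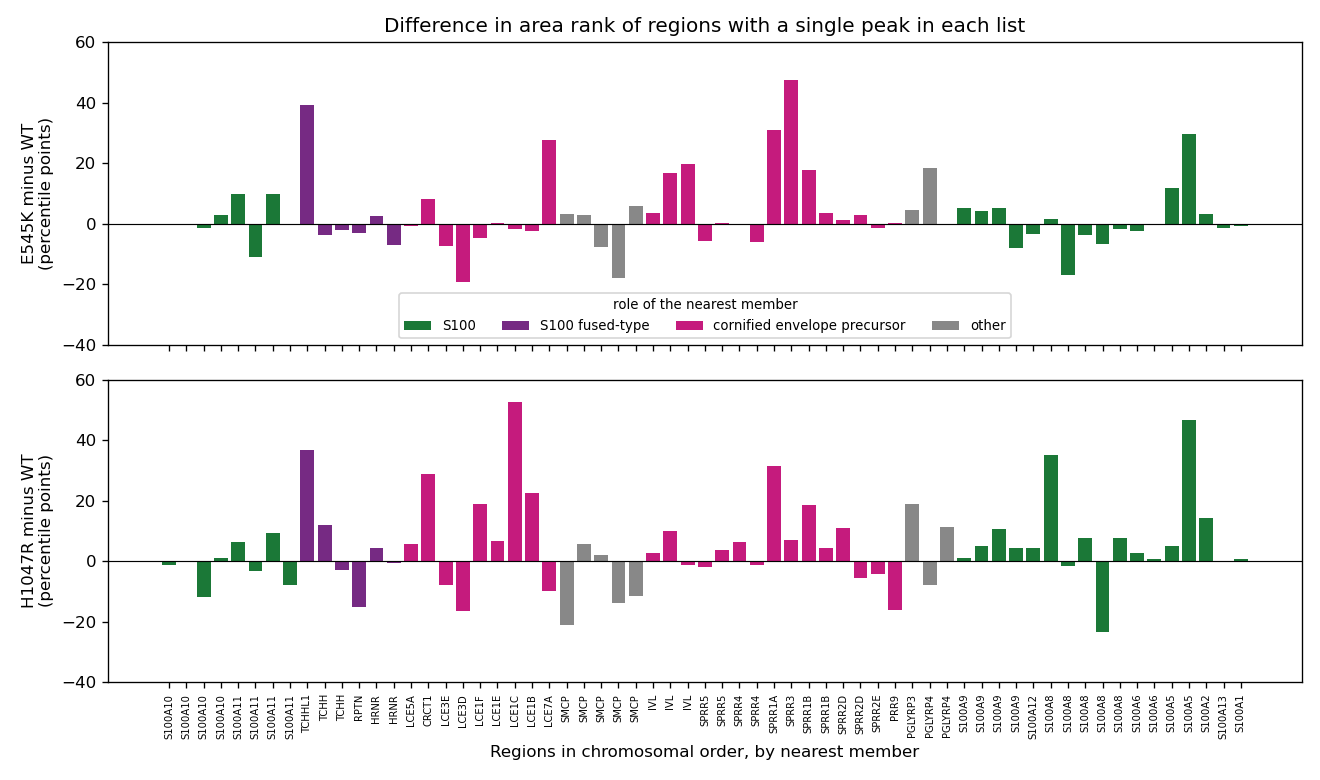
Difference in area rank, in percentile points, of E545K minus WT (above) and H1047R minus WT (below) for the 63 regions with a single peak in each list, in chromosomal order and coloured by the role of the nearest member. Bars reach 47.6 points at SPRR3 in E545K and 52.5 at LCE1C in H1047R, and most lie near 0.

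Within 100 bp of the summit, AP-1 letters were found in 33% of the members' WT peaks, 36.5% of the E545K peaks and 39.8% of the H1047R peaks, near the 34.4%, 32.5% and 36.9% of all peaks. The p53 and p63 half-site was found in 2.2%, 1.18% and 2.15%, beside 6.51%, 6.65% and 6.52% of all peaks. No member peak held the GRHL letters within this distance, which allows a share of up to 4.05%, 4.32% and 3.97% by Wilson's 95% interval, beside 2.49%, 2.62% and 2.49% of all peaks. TEAD letters (CATTCC) were found in 14.3%, 14.1% and 11.8%, beside 18.1%, 17.4% and 16.7%. Whole peaks gave another picture, and the members' peaks were wider, with a median of 599, 619 and 607 bp beside 466, 539 and 466 bp in the whole lists. AP-1 letters were then found in 54.9%, 60% and 54.8%, beside 45.2%, 44.5% and 47.3% of all peaks, and TEAD letters in 45.1%, 48.2% and 48.4%, beside 36.2%, 38.4% and 35.1%. The p53 and p63 half-site was found in 15.4%, 18.8% and 16.1% of whole peaks, beside 15.7%, 17.8% and 15.5%, and GRHL letters in 6.59%, 9.41% and 6.45%, beside 5.56%, 6.16% and 5.7%. NF-kB letters (GGGNNTTTC) were found in 22%, 24.7% and 22.6% of whole peaks, beside 9.46%, 10.7% and 9.86%. Within 100 bp of the summit their shares were 3.3%, 2.35% and 6.45%, beside 2.72%, 2.67% and 3.03%. For FOXO letters (GTAAACA) the whole-peak shares were 15.4%, 17.6% and 19.4%, beside 9.14%, 9.48% and 9.12%. ETS letters (CCGGAAGT) were in 0%, beside 1.96%, 2.2% and 1.84%. The part of width in these shares was not tested. These searches read both strands, and the 12 motifs sought can overlap.

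RefSeq promoters (GRCh38.p14, 300 bases around the start) matched 56 of the 60 members. AP-1 letters occurred in 19, 33.9%, where 5.42% of all 14616 promoters held them. They occurred in 8 of 26 matched members open in all lists and in 10 of 26 open in none. The letters TATAAA on the gene's strand, a motif added after the data were seen, occurred in 31, 55.4%, against 7% of all promoters, and in 9 of 26 open and 18 of 26 closed members. ETS letters (CCGGAAGT) occurred in 0 members and in 6.58% of all promoters. GRHL letters occurred in 4 members, 7.14%, against 1.55% of all promoters, and in 1 of 26 open and 3 of 26 closed members. FOXO letters occurred in 6, 10.7%, against 2.49%, whereas KLF and SP letters (GGGNGGGG) occurred in 17, 30.4%, against 49.8%.

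The 150 bases before the start are printed for S100A7 (chr1:153460652-153460801, minus strand), IVL (chr1:152908396-152908545, plus), SPRR1B (chr1:153031053-153031202, plus) and LCE1C (chr1:152806652-152806801, minus), 4 of the promoters described above. Capitals mark AP-1 and TATAAA letters.

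S100A7 promoter: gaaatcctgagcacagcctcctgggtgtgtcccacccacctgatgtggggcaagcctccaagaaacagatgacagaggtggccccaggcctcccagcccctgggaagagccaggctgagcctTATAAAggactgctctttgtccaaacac
IVL promoter: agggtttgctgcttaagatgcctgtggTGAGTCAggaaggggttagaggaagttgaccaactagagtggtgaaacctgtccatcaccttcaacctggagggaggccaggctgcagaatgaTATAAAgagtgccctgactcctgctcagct
SPRR1B promoter: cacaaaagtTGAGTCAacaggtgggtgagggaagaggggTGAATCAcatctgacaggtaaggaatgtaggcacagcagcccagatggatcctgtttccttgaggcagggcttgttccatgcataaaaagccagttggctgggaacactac
LCE1C promoter: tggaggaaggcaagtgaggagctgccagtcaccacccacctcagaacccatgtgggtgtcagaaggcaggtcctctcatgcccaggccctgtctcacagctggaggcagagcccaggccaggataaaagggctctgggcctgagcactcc

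The IVL promoter held AP-1 letters 123 bases and TATAAA 30 bases before the start, SPRR1B held AP-1 letters 141 and 111 bases before it, and S100A7 held TATAAA 28 bases before it. LCE1C held neither.

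Of 30 regulators known to act on the complex, 28 had a promoter peak in each list, among them KLF4, with 5137, 9531 and 7526, and GRHL3, with 3458, 9623 and 4181. Their summits had another order, with -log10 p of 8.77, 8.28 and 8.03 for KLF4 and 7.86, 7.64 and 7.64 for GRHL3. The regulators FOS and FOSL2, given below, had their largest areas in WT. HOPX had one in H1047R alone, with 382.1, and TP63 had none at its canonical start, a window that does not cover other starts of the gene. Of 22 barrier genes elsewhere, 13 were open in each list, 3 in some and 6 in none. The cross-linking enzyme gene TGM1 had 3579, 4940 and 5475. CASP14, a protease gene of cornification, had none in WT, 360.4 in E545K and 922.7 in H1047R, and the protease gene KLK7 had none, 819.5 and 642.7. Of 9 receptors and partners of S100 proteins, 7 were open in each list, with TLR4 in WT alone, at 216.1, and AGER in none. Beside these counts, the share of all genes with a promoter peak was 67.4% in WT, 67.7% in E545K and 68.1% in H1047R.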

How the data were processed

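ATAC-seq peaks of MCF-10A cells of 3 PIK3CA genotypes were used, 1 list per genotype. Per the submitters' processing notes, reads were trimmed with Trim Galore 0.4.0 and cutadapt, checked with FastQC, handled with SAMtools on hg38, and peaks called with Genrich 0.6.1. Sources used here do not name the aligner. Per the labels, both samples of a genotype share 1 list. The deposited signal value is the authors' area of a peak, and the deposited -log10 p is that of its summit. They were used to describe and rank peaks, with no test. The lists hold the 22 autosomes and no depth.

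Members were counted on GENCODE 44 with pandas 2.3.3, numpy 2.4.6 and scipy 1.17.1 under Python 3.11.15 and drawn with matplotlib 3.10.9. Counts of peaks without a partner over the whole lists were checked against bedtools 2.31.1 (0 of 6 differed). Counts of members were not checked in this way. The partner search and the ranks were also run on simulated data made from the WT values, which checks the code alone. The members, lists and alternatives were chosen with earlier results of these data known. Members named with values were those open in some lists but not all, those with the strongest promoters or peaks, those with the most unpartnered peaks, the most and least covered windows, and the regions with the largest rank differences. Further members are named by role, chosen after their values were seen. Sequences came from hg38 and RefSeq. Alternatives were other promoter widths, flanks, thresholds, overlaps, ranks and motif windows. RNA was not analysed here.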

Additional observations from a re-analysis of the deposited data

How the results depend on the processing

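No paired analysis was possible because each genotype has 1 pooled list, and no replicate could be left out. Of 303 alternative values, 254 stayed within 1.5 times the reported count or the spread allowed, 49 moved and 0 reversed. Only differences in rank could count as reversed, since counts and shares have no sign. With promoters of 500 bp, members open in E545K and not WT were 2, and S100A7A lost its H1047R promoter peak. With areas of at least 400, they were 4, with 1 in WT and not E545K, 7 in H1047R and not WT, and 5 WT peaks without an E545K partner, and FLG and LCE6A lost their promoter peaks. With a summit -log10 p of at least 3, promoters open in E545K and not WT were 2 and in H1047R and not WT 5, and unpartnered peaks were 5 for E545K against WT, 1 for WT against H1047R and 2 for E545K against H1047R. With lists cut to the 89416 strongest peaks, 1 promoter each was open in WT and not E545K, in WT and not H1047R and in E545K and not H1047R. Unpartnered peaks were then 4 for WT against E545K, 5 for WT against H1047R, 8 for E545K against H1047R and 9 for H1047R against E545K. LCE6A lost its WT promoter peak under both of these settings. In gene bodies alone, peaks were 42, 42 and 44 in WT, E545K and H1047R, and unpartnered ones 3 for E545K and 3 for WT against each other, 6 for H1047R against WT, 3 for E545K against H1047R and 5 for H1047R against E545K. With 10 kb flanks, WT peaks without an H1047R partner were 6. By summit -log10 p, the median rank difference was -0.10 for E545K against WT and 3.12 for H1047R against E545K. With areas summed over all shared regions, it was -0.05 for E545K and 1.97 for H1047R, both against WT. Over whole peaks, motif shares in WT, E545K and H1047R were 54.9%, 60% and 54.8% for AP-1, 15.4%, 18.8% and 16.1% for the p53 and p63 half-site, 45.1%, 48.2% and 48.4% for TEAD, and 6.59%, 9.41% and 6.45% for GRHL. Apart from settings that remove peaks or shorten windows by construction, the cause was not tested. Depth is unknown, so a missing peak is a signal below the calling limit of that list, not absent accessibility.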

Other observations

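Barrier genes outside the complex differed between lists in more than 1 order. The promoter of KLK5, a protease gene of skin shedding, had areas of 216.3, 1750 and 771.4 in the order WT, E545K, H1047R. ABCA12, a lipid transporter gene of the skin barrier, had 1716, 2718 and 6275, and SPINK5, a protease inhibitor gene, 589.7, 253.6 and 1131. PPL, the gene of periplakin, had 3417, 7271 and 6905. Among regulators, ELF3 had 2235, 30345 and 6832, whereas FOS had 38663, 35583 and 24328 and FOSL2 23484, 22647 and 13884. ANXA1, the gene of an S100A11 partner, had 2809, 18592 and 2228. Its summit -log10 p was highest in WT, with 7.83, 7.01 and 6.69. Areas depend on peak width, and none of these differences was tested.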
